A study of Mus musculus with 18 samples.

Results

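The genes described here encode the subunits and named assembly factors of the oxidative phosphorylation machinery, the respiratory chain and ATP synthase of the inner mitochondrial membrane. Members were all genes whose symbol starts with Nduf, Uqcr or Atp5, or with Cox followed by a digit, and that had a probe detected on at least 4 of 18 arrays. Of 92 such genes with a probe, 84 passed, out of 10605 named genes tested, and 82 of the 84 were detected on all 18 arrays. Measurements came from AML12, an immortalized line of mouse hepatocytes in culture, after 24 h with phosphate-buffered saline (PBS, n = 5 arrays), 1 mM octanoate (n = 4), 2 mM octanoate (n = 5) or 5 mM octanoate (n = 4). Octanoate is a medium-chain fatty acid that is oxidised in mitochondria, and PBS was the control. RNA was hybridised to Illumina mouse BeadChips with 6 arrays each, and the series title concerns lipid carbon in histone acetylation. Whether the replicates of a group came from separate cultures is not in the labels, so the spread that the p-values rest on may be technical.

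Complex I takes electrons from NADH and complex III takes them from reduced coenzyme Q, which also collects electrons from fatty acid oxidation. Complex IV passes them from cytochrome c to oxygen, and complex V, the ATP synthase, uses the proton gradient that the other complexes build. Each complex joins a catalytic core to small accessory subunits, and dedicated assembly factors load iron-sulfur clusters, heme and copper or insert the core proteins. In the liver this machinery serves a heavy traffic of fatty acids.

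The 84 members comprised 34 subunits of complex I, 7 complex I assembly factors, 7 subunits of complex III, 11 subunits of complex IV, 8 complex IV assembly factors, 16 subunits of complex V and the pseudogene Ndufs5-ps. Ndufa4 was kept with complex I by its name, although work on human cells places the protein in complex IV. Not detected were Cox16, Cox4i2, Cox6a2, Cox7b2, Cox8b, Cox8c, Ndufaf6 and Ndufs1. All members are nuclear genes. The mitochondrial transcript COX2, whose symbol is written in capitals, was not counted among them and is described with the other transcripts of the mitochondrial genome after the results on the members. Cox6b2 and Uqcrfs1 were detected on 4 and 6 arrays, and their values lie close to background. Cox6b2 passed the detection filter only through the arrays of 5 mM, where it is high, and Uqcrfs1 mostly through those of PBS (4 of the 6). The closest genes outside the limit of 4 arrays were Cox16 and Cox6a2, detected on 2 each. The probe named for Ndufs5-ps was not called at any dose (0.18 at 5 mM), and whether it also reads RNA of Ndufs5 was not tested.

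Promoters were examined for letters bound by factors with textbook roles in the expression of respiratory chain genes. The RefSeq promoter table (build GRCm38.p6, 250 bases before to 50 after each gene's start) held 73 of the 84 members, and both strands were searched. TGCGCATGC, the core of the NRF1 site, stood in 6 of the 73 (8.22%) and in 3.5% of the 8639 tested genes with a promoter in the table. CCGGAAG, an ETS family site that GABP binds, stood in 20 (27.4%, against 20.3%). AAGATGGC, a YY1 site, stood in 13 (17.8%, against 5.29%). TCAAGGTCA, an ERR site, stood in 1 (1.37%, against 0.336%). Matches of different motifs overlapped in 0 places in the member promoters, and 35 members (47.9%) held at least 1 of the 4 motifs, against 27% of tested genes. The sequences that follow belong to 3 pairs of members that share a motif and whose RNA moved in opposite directions at 5 mM octanoate. Each stretch has up to 40 bases on either side of the motif, is written 5′ to 3′ on the gene's strand and has the motif, or its reverse complement, in capitals. The first of each pair rose and the second fell.
Ndufa6, NRF1 core, chr15:82354326-82354414, minus strand: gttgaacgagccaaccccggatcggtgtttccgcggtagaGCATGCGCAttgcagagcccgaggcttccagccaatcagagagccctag
Ndufaf4, NRF1 core, chr4:24897929-24898017, plus strand: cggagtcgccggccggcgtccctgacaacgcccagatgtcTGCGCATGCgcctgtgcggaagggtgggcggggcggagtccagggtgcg
Uqcrh, ETS site, chr4:116075034-116075120, minus strand: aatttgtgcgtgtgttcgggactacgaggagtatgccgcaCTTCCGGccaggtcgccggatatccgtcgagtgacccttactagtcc
Ndufs8, ETS site, chr19:3912725-3912799, minus strand: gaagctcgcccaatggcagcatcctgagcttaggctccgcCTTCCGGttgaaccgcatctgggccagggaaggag
Ndufs4, YY1 site, chr13:114388045-114388099, minus strand: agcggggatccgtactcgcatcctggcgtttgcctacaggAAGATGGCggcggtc
Cox10, YY1 site, chr11:64079423-64079491, minus strand: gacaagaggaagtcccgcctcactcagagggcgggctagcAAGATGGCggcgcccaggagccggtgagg
A match of letters describes the sequence and does not show that a factor binds there. Each motif but the ERR site occurred in members that rose and in members that fell. The ETS letters stood in 10 of 33 risen members with a promoter, in 5 of 13 that fell and in 5 of 27 that were not called. The YY1 letters stood in 7, 3 and 3 of the same sets, and the NRF1 letters in 3, 2 and 1.

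Levels are log2 normalised intensities, which cannot be set against each other between genes, and differences are log2 differences from PBS with their standard errors (SE). A gene was called higher or lower where limma's moderated test across all 20536 tested probes gave a Benjamini-Hochberg adjusted p under 0.05. The arrays had 17446 to 19842 detected probes each, and their number limits the precision, with a median SE of 0.084 for a member at 5 mM. Of the hepatocyte markers, 11 of 18 with a probe were detected, Ttr and Hnf4a among them, while Alb, Apoa2, Apoh, Fgb, Ahsg, Tat and Pck1 were not. Of these 11, 8 rose and 2 fell at 5 mM, with a median of 1.17, and Ttr rose by 4.22. Their part in the results was not tested. Of the fibroblast, macrophage and endothelial markers with a probe, Dcn, Acta2, Csf1r and Kdr passed the detection filter, on 4 to 7 arrays each. Biliary markers Krt7, Krt19, Sox9 and Cd24a were detected on all 18 arrays. At 5 mM 1 of these 4 was higher and 2 were lower, with a median of -0.09. Krt7 was lower by a difference of -1.08 (-0.68 with BeadChip as a term, described next, adjusted p = 0.087). In RNA from whole cultures, fewer cells of a type and less RNA per cell cannot be told apart.

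The groups were spread unevenly over 3 BeadChips. All 5 PBS arrays shared a BeadChip with 1 array of 1 mM octanoate. The other 3 arrays of 1 mM shared one with 3 of 2 mM, and the last held the other 2 arrays of 2 mM and all 4 of 5 mM. Fitting BeadChip as a term therefore ties PBS to the treated groups through a single 1 mM array, and the median SE of a member at 5 mM then rose from 0.084 to 0.20. Values from that fit are given beside the results, since BeadChip and dose can be only partly separated.

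At 5 mM octanoate, 38 members were higher and 16 lower than in PBS, with 30 not called. Without Cox6b2, 37 were higher, and without Uqcrfs1, 15 were lower. Among all named genes 31.9% were higher and 26.7% lower. The members' median difference was 0.18, against 0.01 for all named genes, and the members ranged from -0.70 (Cox18, which helps insert a core subunit of complex IV) to 1.03 (Uqcrh, the hinge protein of complex III). Changes were small in size. Besides Cox6b2, for which only a lower bound of its rise is known, 8 members (Uqcrh, Cox19, Ndufs4, Ndufa6, Ndufv3, Cox20, Ndufa1 and Cox18) were both called and changed by at least 1.5-fold, whereas 28.6% of all named genes were, and Uqcrh alone among members reached 2-fold. With BeadChip as a term 14 members were called, 9 higher and 5 lower, against 28.1% of all named genes. Of the 54 members called without the term, 51 (94.4%) kept their sign, against 96.3% of all named genes called without it. Those 14 were Uqcrh, Cox19, Ndufs4, Ndufv3, Ndufa6, Ndufa1, Ndufa11, Ndufa3 and Atp5l on the higher side and Ndufs8, Ndufaf4, Cox10, Ndufs7 and Atp5k on the lower.

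At lower doses fewer members were called. At 1 mM 18 were higher and 2 lower (11.1% and 8.49% of all named genes), and at 2 mM 31 were higher and 14 lower (22.1% and 18.7%). Without Uqcrfs1, 13 were lower at 2 mM. The members' medians were 0.08 at 1 mM and 0.12 at 2 mM, against -0.001 and 0.005 for all named genes. Of the 61 members called at any dose, 15 were higher at all 3 doses, Cox10 was lower at all 3, and 0 were called in opposite directions at different doses. These patterns were not counted over all named genes, so whether they are particular to the members is not known. The comparisons share the PBS arrays. With BeadChip as a term, 3 members were called at 1 mM and 4 at 2 mM (7.49% and 12.4% of all named genes). The counts at 1 mM also rest on quantile normalization, which gives all arrays the same distribution. When arrays were scaled to a common median instead, the median of all probes moved to -0.11 at 1 mM and 0.09 at 5 mM, and the split of members (higher and lower) became 1 and 6 at 1 mM, then 7 and 10 at 2 mM and 28 and 6 at 5 mM. Among all named genes that scaling gave 2.86% higher and 10.2% lower at 1 mM, 13% and 14.6% at 2 mM, and 33.8% and 16.3% at 5 mM. Relative to the median of all named genes, the members' median under that scaling was 0.02, 0.07 and 0.09 at 1, 2 and 5 mM, where quantile normalization gave 0.08, 0.11 and 0.17. Of the members given below with all their array values, Atp5k, Atp5l, Atp5mpl, Cox10, Cox7a2, Ndufs7, Uqcr11 and Uqcrfs1 were not called at 5 mM under that scaling. Without 1 mM replicate 4, 12 members were called at 1 mM in place of 20.

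**Figure D1:**
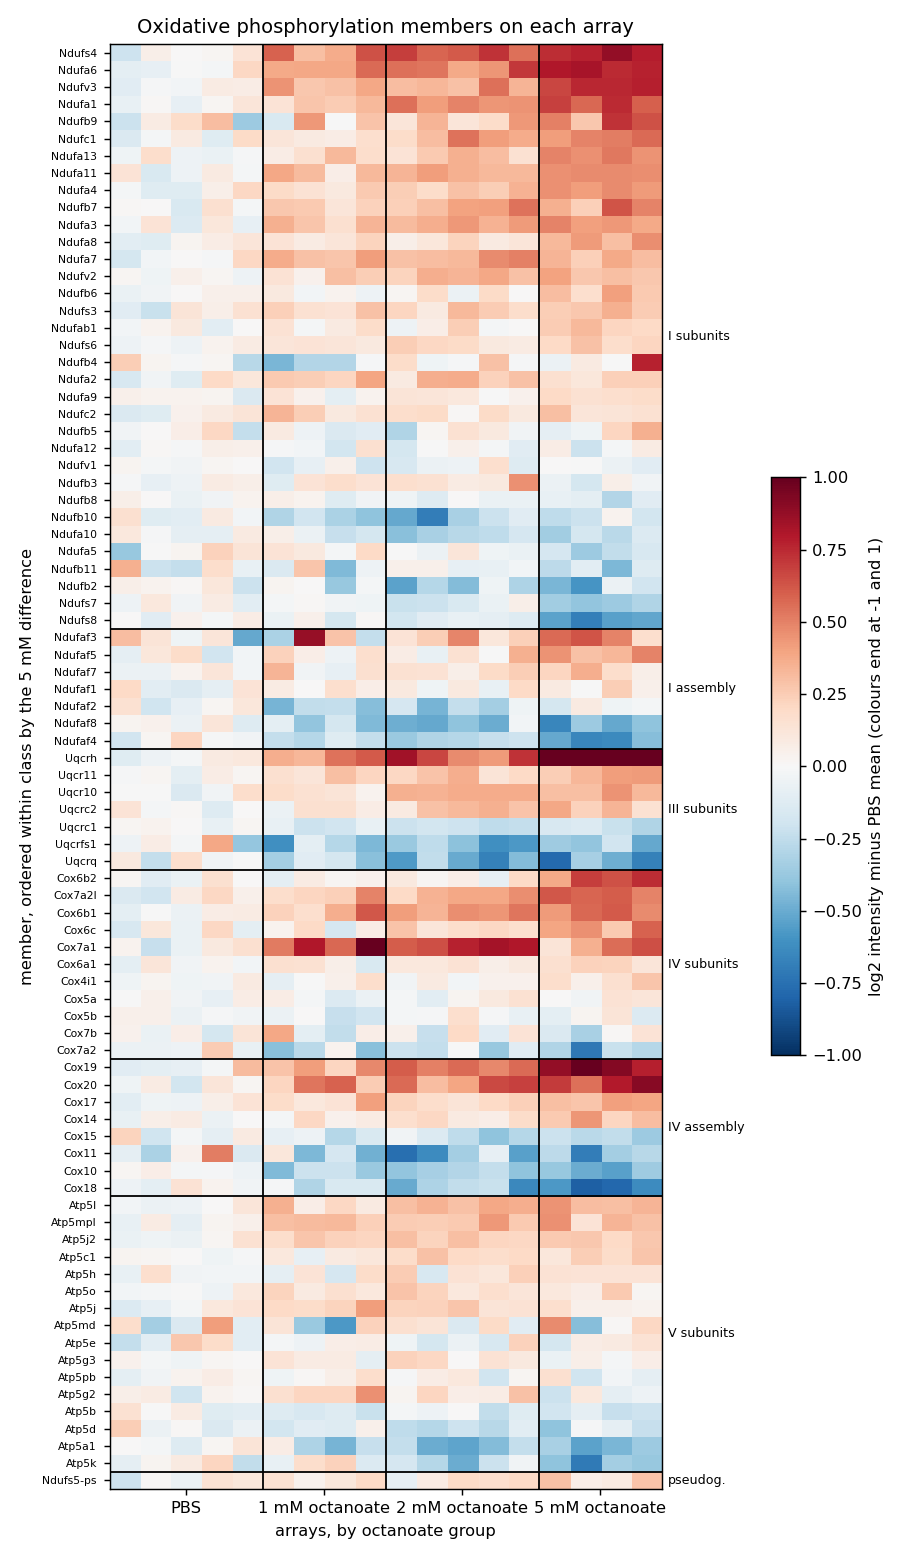
Each row is 1 of the 84 members and each column 1 of the 18 arrays, grouped by octanoate concentration, and colour gives log2 intensity minus the mean of the PBS arrays. Within each class members are ordered by their 5 mM difference, from risen (red) to fallen (blue), and Uqcrh has the highest difference at 1.03.

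**Figure D2:**
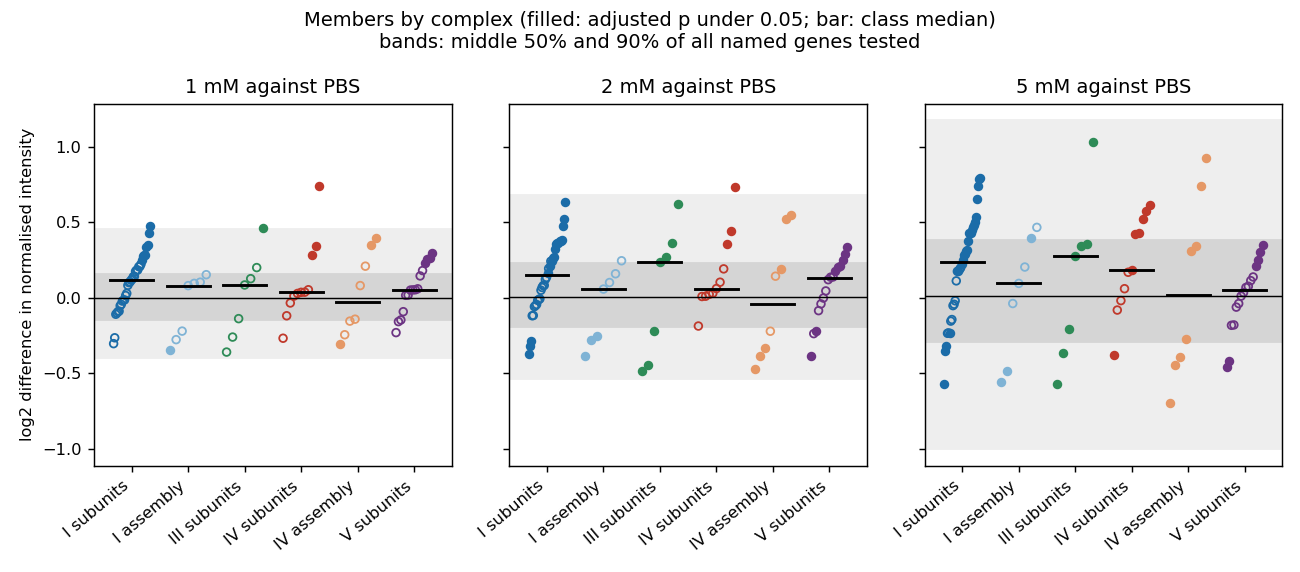
Log2 difference from PBS (vertical axis) of each member by class at 1, 2 and 5 mM octanoate, filled where called, with a bar at the class median and grey bands for the middle of the distribution of all 10605 named genes (the dark band between the quartiles, the light band from its lower to its upper tail). At 5 mM the members, from -0.70 to 1.03, lie inside the light band, and the complex I subunits have a median of 0.23.

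Of the 34 complex I subunits tested, 29 were accessory and 5 core. At 5 mM 19 of the 34 were higher and 4 lower, with a median of 0.23. These are shares of 55.9% and 11.8%, against 31.9% and 26.7% of all named genes. Of the 29 accessory subunits 17 were higher and 2 lower (median 0.25), while of the 5 core subunits Ndufs3 (0.28 ± 0.08 SE) and Ndufv2 (0.31 ± 0.07) were higher, Ndufs7 and Ndufs8 lower, and Ndufv1 not called. No test of accessory against core subunits was made. At 2 mM 15 of the 34 were higher and 3 lower (44.1% and 8.82%, against 22.1% and 18.7% of all named genes). At 1 mM 8 were higher (23.5%) and 0 lower at adjusted p under 0.05, against 11.1% and 8.49% of all named genes.

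Ndufs4 is an accessory subunit at the NADH-binding arm whose loss causes Leigh syndrome in people. Its levels were 10.66, 10.93, 10.87, 10.89 and 11.004 on the PBS arrays, 11.46, 11.17, 11.24 and 11.51 at 1 mM, 11.56, 11.45, 11.48, 11.59 and 11.42 at 2 mM, and 11.61, 11.64, 11.75 and 11.65 at 5 mM. Every treated array lay above every PBS array. The difference at 5 mM was 0.79 ± 0.09 (SE), a 1.73-fold rise (limma, adjusted p = 1.4e-07), and 0.94 with BeadChip as a term (adjusted p = 0.0032). All 4 probes of the gene were called higher, with differences from 0.44 to 0.79.

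Ndufa6, an accessory subunit that holds an acyl carrier protein on complex I, stood at 11.95, 11.96, 12.04, 12.02 and 12.25 on the PBS arrays and at 12.42, 12.43, 12.43 and 12.61 at 1 mM. It reached 12.59, 12.58, 12.42, 12.49 and 12.75 at 2 mM, and 12.84, 12.87, 12.79 and 12.82 at 5 mM. Again no treated array overlapped with PBS, and the 5 mM arrays also lay above all others. At 5 mM the difference was 0.78 ± 0.08 (SE, 1.72-fold, limma adjusted p = 7.9e-08), and 0.63 with BeadChip as a term (adjusted p = 0.030). Ndufv3, Ndufa1, Ndufa11 and Ndufa3, further accessory subunits, rose by 0.74, 0.65, 0.47 and 0.43 and were called with the term as well. The remaining accessory subunits called higher were Ndufb9, Ndufc1, Ndufa13, Ndufa4, Ndufb7, Ndufa8, Ndufa7, Ndufb6, Ndufab1, Ndufs6 and Ndufa9, with differences from 0.18 to 0.53. Those called lower were Ndufa10 (-0.23) and Ndufb2 (-0.32).

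The core subunits Ndufs8 and Ndufs7 carry iron-sulfur clusters on the path to coenzyme Q. Ndufs8 read 11.62, 11.50, 11.66, 11.59 and 11.69 on the PBS arrays, 11.55, 11.66, 11.44 and 11.62 at 1 mM, and 11.43, 11.50, 11.54, 11.52 and 11.48 at 2 mM. At 5 mM it read 11.08, 10.93, 11.07 and 11.09. The PBS, 1 mM and 2 mM arrays overlapped, and the 5 mM arrays lay below all of them. Its 5 mM difference was -0.57 ± 0.07 (SE, 1.49-fold lower, limma adjusted p = 7.3e-07), and -0.61 with BeadChip as a term (adjusted p = 0.016). Against 2 mM it was -0.45 (adjusted p = 4.3e-05), and -0.46 between arrays of the shared BeadChip (adjusted p = 0.0015).

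Ndufs7 stood at 11.33, 11.48, 11.34, 11.46 and 11.27 on the PBS arrays, 11.36, 11.39, 11.34 and 11.34 at 1 mM, 11.16, 11.16, 11.22, 11.31 and 11.44 at 2 mM, and 11.03, 10.98, 11.01 and 11.08 at 5 mM. Here too the 5 mM arrays lay below all others while the lower doses overlapped with PBS. At 5 mM it differed from PBS by -0.35 ± 0.07 (SE, 1.28-fold lower, limma adjusted p = 0.00042), and -0.54 with BeadChip as a term (adjusted p = 0.023).

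Of the 7 complex I assembly factors, Ndufaf5 was higher at 5 mM, and Ndufaf4 and Ndufaf8 lower, with a class median of 0.09 that turned to -0.04 with BeadChip as a term. The shares were 14.3% higher and 28.6% lower, against 31.9% and 26.7% of all named genes. Ndufaf4 helps build the part of complex I that holds the coenzyme Q site. It read 9.54, 9.76, 9.95, 9.73 and 9.70 on the PBS arrays, 9.50, 9.45, 9.61 and 9.50 at 1 mM, 9.37, 9.44, 9.45, 9.51 and 9.53 at 2 mM, and 9.23, 9.08, 9.10 and 9.31 at 5 mM. The 2 mM and 5 mM arrays lay below all PBS arrays, and the 5 mM arrays below all others. The difference at 5 mM was -0.56 ± 0.08 (SE, 1.47-fold lower, limma adjusted p = 8.2e-06), and -0.69 with BeadChip as a term (adjusted p = 0.018).

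Ndufaf5 and Ndufaf8 are known from human cells to act together on the protein of Ndufs7, which Ndufaf5 hydroxylates. Ndufaf5 read 7.98, 8.19, 8.26, 7.88 and 8.04 on the PBS arrays and 8.52, 8.36, 8.40 and 8.57 at 5 mM, with 8.02 to 8.30 at 1 mM and 7.997 to 8.42 at 2 mM. Only its 5 mM arrays lay above all PBS arrays, with a difference of 0.39 ± 0.10 (SE, limma adjusted p = 0.0020). Ndufaf8 went the other way, from 8.36, 8.38, 8.28, 8.46 and 8.21 in PBS to 7.68, 7.97, 7.82 and 7.93 at 5 mM, with 7.90 to 8.24 at 1 mM and 7.83 to 8.31 at 2 mM. Its 5 mM arrays lay below all PBS arrays, with a difference of -0.48 ± 0.10 (SE, limma adjusted p = 0.00058). With BeadChip as a term neither was called (0.44 and -0.45, adjusted p = 0.19 and 0.18). Ndufaf2 was lower at 1 mM (-0.35) and 2 mM (-0.25), with -0.04 at 5 mM where it was not called.

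All 7 complex III members were called at 5 mM, 4 higher and 3 lower (Uqcrfs1, close to background, among the latter), and the same split was found at 2 mM. Since Uqcrfs1 passed the detection filter mostly through PBS, where it is high, its call is no support for a fall. The other complex III members called lower were Uqcrc1 and Uqcrq. Among all named genes 31.9% were higher and 26.7% lower at 5 mM, and 22.1% and 18.7% at 2 mM. The mitochondrial transcript CYTB, a complex III subunit outside the rule, was not called at 5 mM (-0.015, limma adjusted p = 0.88). Uqcrh, the hinge protein between cytochromes c1 and c, had the largest rise of all members. Its levels were 11.85, 11.92, 11.95, 12.06 and 12.08 on the PBS arrays, 12.33, 12.30, 12.52 and 12.59 at 1 mM, 12.81, 12.64, 12.44, 12.39 and 12.70 at 2 mM, and 13.06, 12.99, 12.99 and 12.97 at 5 mM. No array of a treated group overlapped with PBS, and the 5 mM arrays lay above all others. Its 5 mM difference was 1.03 ± 0.09 (SE, 2.05-fold, limma adjusted p = 7.4e-09), and 0.98 with BeadChip as a term (adjusted p = 0.0034). Against 2 mM the difference was 0.41 (adjusted p = 0.0017), and 0.46 between arrays of the shared BeadChip (adjusted p = 0.0094).

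The other complex III subunits moved less. Uqcr11, a small membrane subunit, read 12.32, 12.35, 12.23, 12.40 and 12.35 in PBS, 12.49, 12.45, 12.63 and 12.54 at 1 mM, 12.54, 12.62, 12.70, 12.46 and 12.53 at 2 mM, and 12.58, 12.66, 12.75 and 12.76 at 5 mM. All treated arrays lay above PBS, and the difference at 5 mM was 0.35 ± 0.07 (SE, limma adjusted p = 0.00034), with 0.43 and adjusted p = 0.083 with BeadChip as a term. Uqcr10 (0.34) and the matrix-facing core protein Uqcrc2 (0.28) were also higher at 5 mM, Uqcrc2 with -0.00 under the BeadChip term. Its partner Uqcrc1 was lower (-0.21), so the 2 core proteins were called in opposite directions. Uqcrq, a small subunit next to cytochrome b, read 7.48, 7.15, 7.56, 7.35 and 7.38 in PBS, 7.05, 7.27, 7.21 and 6.97 at 1 mM, 6.82, 7.14, 6.88, 6.71 and 6.95 at 2 mM, and 6.61, 7.05, 6.89 and 6.71 at 5 mM. The 2 mM and 5 mM arrays lay below all PBS arrays, and the 5 mM difference was -0.57 ± 0.11 (SE, limma adjusted p = 0.00017), with -0.56 and adjusted p = 0.15 with BeadChip as a term. Uqcrfs1, the Rieske iron-sulfur protein, was close to background at 4.88, 5.01, 4.91, 5.32 and 4.54 in PBS and 4.57, 4.54, 4.74 and 4.42 at 5 mM, with 4.32 to 4.83 at 1 mM and 4.32 to 4.68 at 2 mM. Its groups overlapped, and its call at 5 mM (-0.36 ± 0.13 SE, limma adjusted p = 0.023) was lost without PBS replicate 4, 5 mM replicate 2 or 5 mM replicate 4. Uqcrfs1 was also not called without background correction (-0.10), in the authors' deposited table of processed values (-0.055) or with BeadChip as a term (-0.45, adjusted p = 0.29).

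Among complex IV subunits 6 of 11 were higher (5 of 10 without Cox6b2) and 1 lower at 5 mM, with a median of 0.19. Among all named genes 31.9% were higher and 26.7% lower. At 1 mM and at 2 mM 3 were higher (27.3%, against 11.1% and 22.1% of all named genes), Cox7a1, Cox7a2l and Cox6b1. Cox5a, Cox5b and Cox7b were called at no dose. With BeadChip as a term 0 of the 11 were called at 5 mM, against 28.1% of all named genes. Cox4i1, the widely expressed isoform of a large nuclear subunit, read 13.25, 13.32, 13.25, 13.26 and 13.38 in PBS, 13.21, 13.29, 13.34 and 13.47 at 1 mM, 13.26, 13.38, 13.27, 13.33 and 13.34 at 2 mM, and 13.47, 13.34, 13.46 and 13.57 at 5 mM. The groups overlapped, and its difference at 5 mM missed the threshold (0.17 ± 0.07 SE, limma adjusted p = 0.055), with -0.03 under the BeadChip term. Cox4i1 was called higher under 10 of 30 alternatives, with adjusted p down to 0.011 without background correction.

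Isoforms of a subunit could be followed for Cox7a, Cox6b and the c ring of complex V. Cox7a2l, which links complexes III and IV in supercomplexes, read 10.54, 10.49, 10.77, 10.89 and 10.74 in PBS, 10.86, 10.90, 10.92 and 11.19 at 1 mM, 10.88, 11.03, 11.08, 11.07 and 11.15 at 2 mM, and 11.30, 11.27, 11.29 and 11.19 at 5 mM. The 1 mM and 2 mM arrays overlapped with PBS and the 5 mM arrays lay above it, with a difference of 0.58 ± 0.09 (SE, 1.49-fold, limma adjusted p = 2.0e-05) and 0.32 with BeadChip as a term (adjusted p = 0.33). Cox7a2, the isoform of liver, was lower. It read 8.85, 8.85, 8.85, 9.16 and 8.83 in PBS, 8.49, 8.64, 8.94 and 8.49 at 1 mM, 8.70, 8.67, 8.91, 8.53 and 8.80 at 2 mM, and 8.61, 8.19, 8.69 and 8.62 at 5 mM. Its 5 mM arrays lay below PBS (-0.38 ± 0.12 SE, limma adjusted p = 0.0093), and the call was lost without 5 mM replicate 2 and with BeadChip as a term (-0.48, adjusted p = 0.24). Cox7a1, the isoform of muscle, differed by 0.74, 0.73 and 0.42 at 1, 2 and 5 mM and was called higher at all 3, with -0.02 at 5 mM under the BeadChip term.

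Cox6b1, the general isoform of a subunit facing the intermembrane space, was higher by 0.35, 0.44 and 0.52 at 1, 2 and 5 mM. Its testis isoform Cox6b2 was detected on the 4 arrays of 5 mM only, at 4.81, 5.12, 5.07 and 5.17, against 4.45, 4.32, 4.36, 4.59 and 4.43 in PBS, where it was not detected, and 4.33 to 4.51 at 1 mM and 4.35 to 4.63 at 2 mM. The 5 mM arrays lay above all others, and against the lowest detected signal the rise was at least 1.13-fold. Since Cox6b2 was tested through the group where it is high, its call is no support for a rise. The main counts of members higher at 5 mM, between 2 and 5 mM and on the slope are given without it as well. Counts under median scaling keep it among the members. Of the c-ring isoforms, Atp5g2 was higher at 1 mM (0.26) and not called at 5 mM (-0.06), and Atp5g3 was called at no dose.

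The 8 complex IV assembly factors were all called at 5 mM, 4 higher and 4 lower, against 31.9% and 26.7% of all named genes. Their median was 0.02, and Cox11, described below, lay just inside the threshold. Both enzymes of heme A synthesis, Cox10 and Cox15, were lower. Cox10, which makes heme O, read 10.62, 10.66, 10.57, 10.58 and 10.54 in PBS, 10.16, 10.38, 10.38 and 10.22 at 1 mM, 10.20, 10.26, 10.30, 10.36 and 10.20 at 2 mM, and 10.22, 10.10, 10.05 and 10.24 at 5 mM. Every treated array lay below every PBS array. The difference was -0.31 at 1 mM, -0.33 at 2 mM and -0.44 ± 0.07 (SE, 1.36-fold lower, limma adjusted p = 3.1e-05) at 5 mM, and -0.64 at 5 mM with BeadChip as a term (adjusted p = 0.011). Cox15, which turns heme O into heme A, was lower by less (-0.27, adjusted p = 0.017) and had 0.01 under the BeadChip term.

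Factors that handle copper split. Cox19, a small intermembrane space protein of copper delivery, read 9.77, 9.79, 9.81, 9.87 and 10.21 in PBS, 10.18, 10.31, 10.11 and 10.37 at 1 mM, 10.49, 10.39, 10.46, 10.37 and 10.46 at 2 mM, and 10.77, 11.004, 10.81 and 10.67 at 5 mM. The 1 mM arrays overlapped with PBS through PBS replicate 5, and the 2 mM and 5 mM arrays lay above it. At 5 mM it differed from PBS by 0.92 ± 0.09 (SE, 1.90-fold, limma adjusted p = 6.0e-08), and 0.87 with BeadChip as a term (adjusted p = 0.011). Against 2 mM it was 0.38 (adjusted p = 0.0044), and 0.40 between arrays of the shared BeadChip (adjusted p = 0.031). Cox17, a copper chaperone of the same compartment, was higher (0.34), and Cox11, which places copper in a core subunit, lower (-0.39, adjusted p = 0.049). Cox11 lay just inside the threshold and was called under 14 of 30 alternatives.

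Factors that insert core subunits or act on their translation split too. Cox18, the insertase for a core subunit of complex IV, read 10.15, 10.10, 10.34, 10.23 and 10.16 in PBS, 10.19, 9.90, 10.04 and 10.04 at 1 mM, 9.69, 9.89, 9.95, 9.98 and 9.55 at 2 mM, and 9.63, 9.38, 9.42 and 9.57 at 5 mM. The 2 mM and 5 mM arrays lay below PBS. The difference at 5 mM was -0.70 ± 0.09 (SE, 1.62-fold lower, limma adjusted p = 3.2e-06), with -0.43 and adjusted p = 0.19 with BeadChip as a term. Cox20, which in human cells is a chaperone of the same core subunit, moved oppositely. It read 9.45, 9.57, 9.31, 9.61 and 9.51 in PBS, 9.70, 10.03, 10.08 and 9.75 at 1 mM, 10.06, 9.80, 9.89, 10.15 and 10.18 at 2 mM, and 10.19, 10.05, 10.29 and 10.40 at 5 mM. All treated arrays lay above PBS, with a difference at 5 mM of 0.74 ± 0.11 (SE, 1.67-fold, limma adjusted p = 5.7e-06), and 0.24 with BeadChip as a term (adjusted p = 0.49). Cox14 was higher by 0.31.

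**Figure D3:**
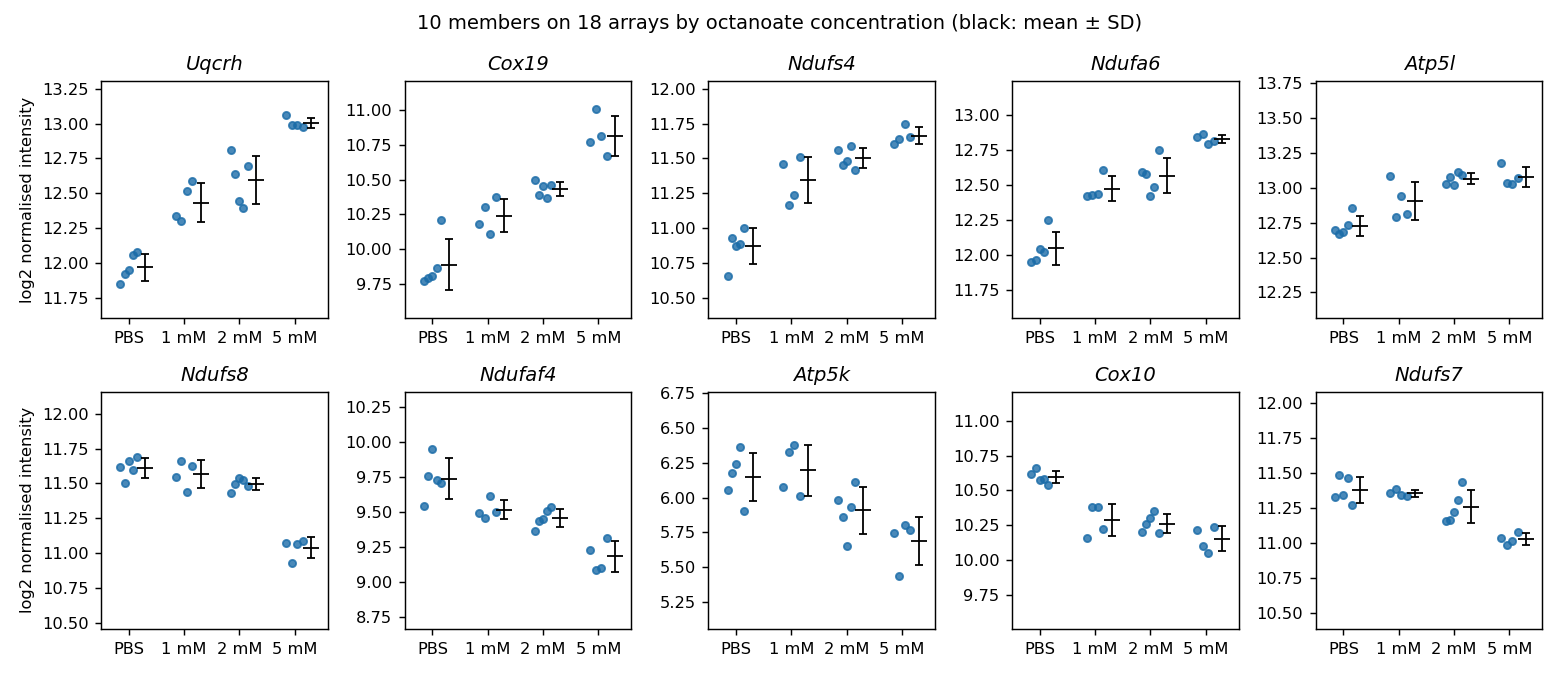
Log2 normalised intensity (vertical axis, a span of equal height in every panel) of 10 members on each of 18 arrays by group, with the mean ± SD in black. The upper row shows 5 members that rose and the lower row 5 that fell, each called at 5 mM also with BeadChip as a term, and Ndufs8 stays at 11.43 to 11.69 up to 2 mM and lies at 10.93 to 11.09 at 5 mM.

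In complex V 4 of 16 subunits were higher and 2 lower at 5 mM (25% and 12.5%, against 31.9% and 26.7% of all named genes). The class median of 0.05 turned to -0.03 when all probes of a gene were averaged. In the F1 head Atp5c1 was higher (0.21) and Atp5a1 lower, and Atp5b, Atp5d and Atp5e were not called. The c ring and the peripheral stalk had 0 called of 2 and 0 of 4 at 5 mM by their brightest probes, at adjusted p under 0.05. In the stalk these probes gave Atp5j higher at 1 mM (0.25) and 2 mM (0.20) and Atp5o higher at 2 mM (0.18). Dimmer probes of both genes were called lower at 2 mM. Of the 5 small membrane subunits 3 were higher and 1 lower at 5 mM. At 1 mM 4 of the 16 complex V subunits were higher and 0 lower (25% and 0%, against 11.1% and 8.49% of all named genes). For 2 mM the split was 6 and 2 (37.5% and 12.5%, against 22.1% and 18.7%). With BeadChip as a term 0 complex V subunits were called at 1 mM and 1 at 2 mM, against 7.49% and 12.4% of all named genes. Atp5l, subunit g, read 12.70, 12.67, 12.68, 12.74 and 12.85 in PBS, 13.08, 12.79, 12.94 and 12.82 at 1 mM, 13.03, 13.08, 13.02, 13.11 and 13.09 at 2 mM, and 13.18, 13.03, 13.03 and 13.07 at 5 mM. Its 2 mM and 5 mM arrays lay above PBS, with a difference at 5 mM of 0.35 ± 0.07 (SE, limma adjusted p = 0.00045), and 0.52 with BeadChip as a term (adjusted p = 0.027).

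Atp5k, subunit e, partners subunit g at the base of the enzyme. It read 6.06, 6.18, 6.24, 6.36 and 5.90 in PBS, 6.07, 6.33, 6.38 and 6.01 at 1 mM, 5.98, 5.86, 5.65, 5.93 and 6.11 at 2 mM, and 5.74, 5.44, 5.81 and 5.77 at 5 mM. The 5 mM arrays lay below PBS, and the lower doses overlapped with it. Its difference at 5 mM was -0.46 ± 0.11 (SE, limma adjusted p = 0.0020), and -0.81 with BeadChip as a term (adjusted p = 0.036), so the pair was called in opposite directions in both fits. Under median scaling neither Atp5k nor Atp5l was called, and the only detected probe of Atp5k is dim.

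Atp5mpl, a small proteolipid of the membrane part, read 12.02, 12.18, 12.01, 12.12 and 12.15 in PBS, 12.39, 12.41, 12.42 and 12.33 at 1 mM, 12.35, 12.34, 12.36, 12.53 and 12.36 at 2 mM, and 12.55, 12.23, 12.44 and 12.39 at 5 mM. All treated arrays lay above PBS without a further step with dose (0.29, 0.29 and 0.31 at 1, 2 and 5 mM, limma adjusted p = 0.0018 at 5 mM). Atp5mpl was not called at 5 mM with BeadChip as a term (0.21, adjusted p = 0.44) or by the mean of its probes (0.15, adjusted p = 0.15). Atp5a1, the alpha subunit of the F1 head, read 11.21, 11.19, 11.08, 11.23 and 11.34 in PBS, 11.28, 10.90, 10.75 and 10.98 at 1 mM, 10.97, 10.71, 10.68, 10.78 and 10.97 at 2 mM, and 10.88, 10.68, 10.75 and 10.84 at 5 mM. The 2 mM and 5 mM arrays lay below PBS (-0.42 ± 0.10 SE at 5 mM, limma adjusted p = 0.0013). The array of 1 mM that shared the BeadChip of PBS lay within the PBS range, and with BeadChip as a term the difference at 5 mM was -0.10 (adjusted p = 0.79).

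For 26 members several probes were detected, and the widest spread between probes was in complex V. Atp5j, of the peripheral stalk, had differences of 0.08 by its brighter probe and -1.33 by the other, which fell at every dose (-0.42 at 1 mM and -0.78 at 2 mM). Atp5o, of the same stalk, had 0.11 by the brightest probe and -0.72 and -0.76 by the other 2. Atp5pb had -0.04 and -0.03 by its brighter probes and -0.53 by the dimmest. In complex I, Ndufb8 had -0.14 by the brighter probe, which was not called, and 0.53 by the other. Ndufab1, the mitochondrial acyl carrier protein, was called in opposite directions by 2 probes (0.25 and -0.26). In all, 12 of the 26 were called by some but not all of their probes at 5 mM, and which transcript forms each probe reads was not examined.

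Between 2 and 5 mM, 9 members were higher (8 without Cox6b2) and 5 lower, against 18.9% and 14.6% of all named genes. The 9 were Uqcrh, Cox19, Cox6b2, Ndufv3, Ndufa6, Ndufa8, Ndufa13, Ndufb6 and Ndufaf5, and the 5 were Ndufs8, Ndufs7, Ndufb3, Ndufaf4 and Cox18. With BeadChip as a term, which rests this comparison on the 2 arrays of 2 mM and 4 of 5 mM of 1 BeadChip, 8 members were called (7 without Cox6b2, against 25.2% of all named genes), Uqcrh, Cox19, Cox6b2 and Ndufv3 higher and Ndufs8, Ndufs7, Ndufb3 and Ndufaf4 lower. Under median scaling, which put the median of all probes at 0.16, 10 members were higher and 0 lower at adjusted p under 0.05, against 26.2% and 5.6% of all named genes. Between 1 and 2 mM 0 members were called by limma at adjusted p under 0.05, against 4.26% higher and 1.69% lower among all named genes. An unadjusted p under 0.05 was found for 10 members, and the share of all named genes at that threshold was not counted. Along the linear dose slope 37 members rose (36 without Cox6b2) and 15 fell, against 30.7% and 24.9% of all named genes. The slope split became 5 and 5 with BeadChip as a term, where 26.8% of all named genes were called, and 34 and 2 under median scaling, where 35.5% and 13% of all named genes rose and fell.

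**Figure D4:**
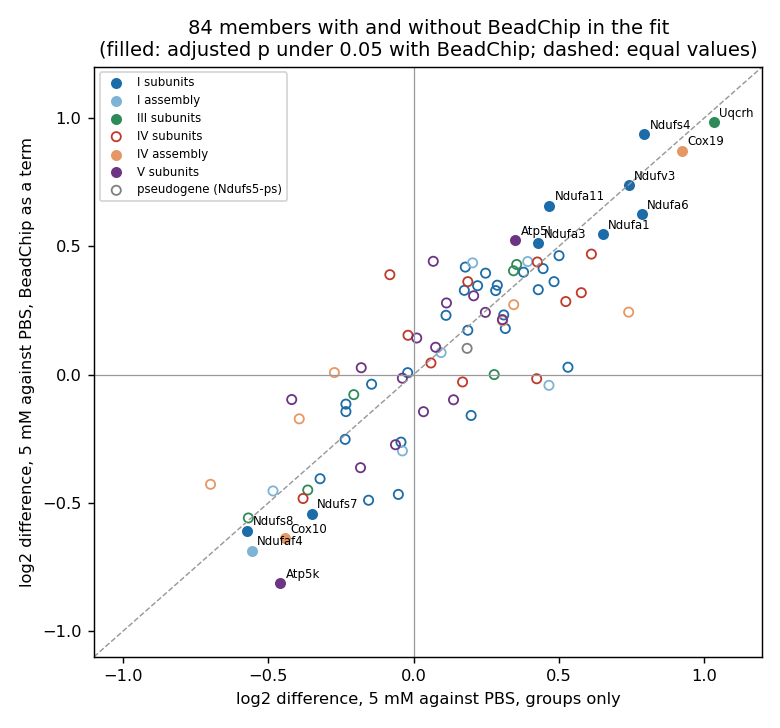
Log2 difference at 5 mM against PBS of the 84 members without (horizontal axis) and with (vertical axis) BeadChip as a term, coloured by class, with the line of equal values dashed. The 14 filled, named members were called with the term, all of them on the same side of 0 in both fits, and Uqcrh lies at 1.03 and 0.98.

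Other genes of the pathway were read from lists chosen with earlier results of these data known. Among all named genes 31.9% were higher and 26.7% lower at 5 mM, the shares to set beside each list count below. The mitochondrial genome encodes core subunits of complexes I, III, IV and V, and 7 of its 13 protein-coding transcripts were tested, each by 1 probe. At 5 mM 4 were higher (COX2, ND4L, ND4 and ATP6) and ND5 was lower, with ND1 and CYTB not called. COX2, a catalytic subunit of complex IV, read 12.73, 12.68, 12.64, 12.72 and 12.71 in PBS, 13.27, 13.08, 12.69 and 12.92 at 1 mM, 12.998, 12.82, 12.82, 13.03 and 13.30 at 2 mM, and 13.47, 13.30, 13.19 and 13.71 at 5 mM. Its 2 mM and 5 mM arrays lay above PBS, with a difference at 5 mM of 0.72 ± 0.12 (SE, limma adjusted p = 4.2e-05), and 0.81 with BeadChip as a term (adjusted p = 0.026). ND4L and ND4, core subunits of complex I, differed by 1.12 and 0.30, and by 1.22 and 0.41 with BeadChip as a term, where neither was called (adjusted p = 0.091 and 0.13). ATP6 differed by 0.31, and by 0.38 with the term, where it was not called (adjusted p = 0.32). ND4 and ATP6 were also not called under median scaling. ND5 differed by -0.68 (limma adjusted p = 0.013), although its 5 mM arrays overlapped with PBS. Its difference was -1.41 with BeadChip as a term (adjusted p = 0.047) and -0.54 under median scaling (adjusted p = 0.019). With the term only COX2 and ND5 of the 7 were called, in opposite directions. ND1, ND4 and CYTB lay at 13.94 to 14.79, near the highest level of any tested probe (14.97).

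Complex II, which takes electrons from succinate, had 1 of 3 tested subunits called higher at 5 mM (Sdhc, 0.23) and 0 called lower. The median of the 3 subunits was nonetheless negative, at -0.195. The 4 assembly factors of complex II were all higher, with a median of 0.39. Under the BeadChip term Sdhc (0.04, adjusted p = 0.92), Sdhaf1 (0.28, adjusted p = 0.29) and Sdhaf2 (0.08, adjusted p = 0.79) were not called. Among these factors Sdhaf4, which helps mature the flavoprotein subunit, rose by 0.89 ± 0.09 (SE, limma adjusted p = 3.0e-08), and by 1.23 with BeadChip as a term (adjusted p = 0.00019). Sdhaf3, known in yeast and flies to aid the iron-sulfur subunit, rose by 0.55 (0.64 with the term, adjusted p = 0.037). Of the electron carriers, cytochrome c1 (Cyc1) was lower by a difference of -0.24 (not called with BeadChip as a term, -0.21, adjusted p = 0.46) and cytochrome c (Cycs) had -0.02. In coenzyme Q synthesis 3 of 10 genes were higher and 5 lower, with Coq7, the hydroxylase of the pathway, at -0.95, Coq6 at -0.58 and the atypical kinase Coq8b at 1.06. Assembly factors without a member's name had 9 of 27 higher and 8 lower, among them Cmc1 (0.52), Tmem126b (0.70) and Ttc19 (0.50). Under the BeadChip term Cmc1 was called (0.69, adjusted p = 0.017), and Tmem126b (0.25, adjusted p = 0.54) and Ttc19 (0.29, adjusted p = 0.32) were not.

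Regulators of mitochondrial transcription and biogenesis had 3 of 18 higher and 8 lower at 5 mM. Pprc1, a coactivator of the PGC-1 family, fell from 10.14 ± 0.08 (SD, n = 5) in PBS to 8.87 ± 0.05 (SD, n = 4), a difference of -1.28 (limma adjusted p = 5.0e-12), and -1.32 with BeadChip as a term. Nrf1, the factor that binds the NRF1 letters searched above, had -0.84 (adjusted p = 3.7e-07), and Esrra, which encodes the estrogen-related receptor alpha, had 0.85 (adjusted p = 1.4e-08). Gabpa, which encodes a subunit of the ETS factor and is named because its letters were searched, had -0.94 (adjusted p = 1.9e-06) and -0.58 with BeadChip as a term (adjusted p = 0.15). Mitochondrial import components and chaperones had 0 of 10 higher and 8 lower, with Timm50 at -1.12, Tomm40 at -0.97 and the protease Lonp1 at -0.91. Of 7 carriers 1 was higher, the mitochondrial creatine kinase Ckmt1 (3.11), and 2 lower, the outer membrane channels Vdac2 (-0.42) and Vdac1 (-0.28). Ckmt1 was detected on 1 of 5 PBS arrays (4.72 ± 0.34, SD) and on all 4 of 5 mM (7.82 ± 0.04, SD), so the size of its rise is set against a level close to background. Vdac1 was not called with BeadChip as a term (-0.43, adjusted p = 0.065).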

How the data were processed

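Each of 18 arrays measured total RNA of AML12 cells, grouped by the treatment in the labels. The authors deposited the bead intensity of 45281 probes per array without normalization, and, per the file headers, a detection p-value for each. A second deposited table holds the authors' processed log2 values, for which the submitters' processing notes name lumi, with no version or settings in the sources used here, and which served as an alternative. Intensities were normalised with neqc of limma 3.58.1 (R 4.3.3, statmod 1.5.0), which corrects background from the detection p-values, with an offset of 16, followed by quantile normalization on the log2 scale. The offset understates changes of dim probes, and quantile normalization removes shifts shared by most probes.

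The detection filter (p under 0.05 on 4 or more arrays) passed 20536 probes (45.4%). Symbols came from the platform annotation, updated by Entrez ID through RefSeq (GRCm38.p6). Of all probes 34885 had 1 symbol, 18 had several and 10378 are unnamed here, and 34807 matched. A gene was read from its brightest detected probe. Group means were fitted to all arrays with lmFit and eBayes (14 residual degrees of freedom), with two-sided tests and Benjamini-Hochberg adjustment over all tested probes. The procedure was tested on simulated data. Array values were named for the 2 largest rises and falls at 5 mM among called members of each class, and for Cox4i1 and Cox7a2l. For other lists, up to 3 genes with the smallest adjusted p were named, and others (Gabpa, Sdhaf1, Sdhaf2, ATP6, ND5, ND1 and CYTB among them) were added after their values were seen. Transcripts of the mitochondrial genome were looked up by RefSeq symbols. Members and lists were chosen with earlier results of these data known. Alternatives changed the scaling, background correction, detection filter, choice of probe, symbols, BeadChip, replicate number and arrays used. Figures were drawn with matplotlib 3.10.9.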

Additional observations from a re-analysis of the deposited data

Results flagged for a closer look

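Within a group of 4 or 5 arrays, 8 values of the members named with all their arrays stood apart by Dixon's criterion, out of 92 groups of arrays examined, and chance gives about 1 in 20. At 5 mM octanoate, replicate 2 was low for Atp5k (5.44, with the others at 5.74 to 5.81), for Cox7a2 (8.19, others 8.61 to 8.69) and for Ndufs8 (10.93, others 11.07 to 11.09). All 3 are members that were lower at 5 mM. In PBS, Cox19 was high on replicate 5 (10.21, others 9.77 to 9.87) and Cox7a2 on replicate 4 (9.16, others 8.83 to 8.85). Ndufa6 was high on 1 mM replicate 4 (12.61, others 12.42 to 12.43). At 2 mM, Atp5mpl was high on replicate 4 (12.53, others 12.34 to 12.36) and Ndufaf8 on replicate 5 (8.31, others 7.83 to 7.94).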

How the results depend on the processing

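Directions at 5 mM of the 23 members named with all their arrays held under every alternative run, except Cox4i1, which turned to -0.029 with BeadChip as a term. Of these 23, 6 (Cox19, Ndufa6, Ndufaf4, Ndufs4, Ndufs8 and Uqcrh) were called in the same direction under all 30 alternatives. Why other values moved was not tested, apart from alternatives that use fewer arrays. Under median scaling 7, 17 and 34 members were called at 1, 2 and 5 mM, with medians of -0.109, 0.039 and 0.215, and at 5 mM medians of 0.219 for complex I assembly, 0.146 for complex IV subunits, 0.081 for complex IV assembly and 0.105 for complex V. With BeadChip as a term 3, 4 and 14 members were called, 8 for 5 against 2 mM and 10 on the slope, the median at 1 mM was 0.111, and the 5 mM medians were 0.280 (complex I subunits), -0.042 (complex I assembly), -0.00023 (complex III), 0.284 (complex IV subunits) and 0.108 (complex IV assembly). Without background correction 32 were called at 1 mM, 3 for 2 against 1 mM and 24 for 5 against 2 mM. The authors' deposited table gave 33 at 1 mM and 3 for 2 against 1 mM, with 5 mM medians of 0.139 (all), 0.185 (complex I subunits) and 0.141 (complex IV subunits). Averaging a gene's probes gave 2 for 2 against 1 mM and medians of 0.047 at 1 mM, 0.084 at 2 mM and -0.026 for complex V at 5 mM. For 2 against 1 mM, 1 member was called without the detection filter and 2 with a stricter one. Without 3 arrays that stood apart, 7 were called at 1 mM.

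Leaving out 1 array at a time gave 12 to 22 members at 1 mM, 37 to 45 at 2 mM, 49 to 57 at 5 mM, 0 to 1 for 2 against 1 mM, 10 to 15 for 5 against 2 mM and 44 to 52 on the slope. The highest for 2 against 1 mM came without PBS replicate 5. The medians then ran from 0.059 to 0.084 at 1 mM, 0.099 to 0.134 at 2 mM and 0.152 to 0.195 at 5 mM, and by class at 5 mM from 0.221 to 0.264 (complex I subunits), 0.045 to 0.145 (complex I assembly), 0.240 to 0.319 (complex III), 0.163 to 0.215 (complex IV subunits), -0.0060 to 0.035 (complex IV assembly) and 0.0063 to 0.089 (complex V, lowest without PBS replicate 2). No pairing of the arrays by replicate number was seen in their deviations from the group means. Correlations ran from -0.041 to 0.054 in 25 same-numbered pairs and from -0.091 to 0.076 in 96 differently numbered pairs. With the replicate block 22, 42 and 52 members were called at 1, 2 and 5 mM, 0 and 13 for 2 against 1 and 5 against 2 mM, and 45 on the slope. An alternative chosen after seeing the data, without Cox6b2 and Uqcrfs1, gave 20, 44 and 52 at the 3 doses. Probes near background limit what can be said of Cox6b2, Uqcrfs1 and Ckmt1 in PBS.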
